A study of Mus musculus with 15 samples.

Results

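The 10 genes of p53 signalling and cell cycle arrest described here were followed across the ovaries of young, middle-aged and canagliflozin-treated mice, as RNA read-outs of cellular senescence. The genes were Trp53, Mdm2, Cdkn1a, Ccng1, Gdf15, Cdkn1b, Cdkn2a, Cdkn2b, Cdkn2c and Lmnb1. They were chosen by name for their roles, with earlier results of these data known. They are 10 of 24656 genes listed and 10 of 17569 tested. RNA came from whole ovaries of UM-HET3 mice, a genetically heterogeneous stock bred from several inbred strains. The 3 groups of 5 libraries were untreated controls of 6 months, untreated controls of 12 months, and mice of 12 months that had received canagliflozin between 6 and 12 months of age. Canagliflozin is a glucose-lowering drug that inhibits the renal glucose transporter SGLT2. The labels describe 1 ovary per mouse for both 12-month groups, polyadenylated RNA and a directional library. All animals were of the same stock, and the labels name no transgene and no stage of the oestrous cycle.

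The tumour suppressor p53, the product of Trp53, is a transcription factor that is held low by the ubiquitin ligase MDM2 and by its partner MDM4. When DNA damage or other stress frees it, p53 raises targets that include Cdkn1a, Ccng1, Gdf15 and Mdm2 itself, and much of this control acts on the protein and leaves the Trp53 transcript as it was. The inhibitors p21 (Cdkn1a), p27 (Cdkn1b), p16 (Cdkn2a), p15 (Cdkn2b) and p18 (Cdkn2c) block cyclin-dependent kinases and so keep the retinoblastoma protein RB active, and loss of lamin B1 (Lmnb1) is a widely used sign of senescence. In the ovary, Cdkn1b is also known to hold primordial follicles at rest and to rise as granulosa cells leave the cycle.

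Promoter sequence is shown for the pair of genes whose counts it helps to read. Cdkn1a is the classic p53 target, and Cdkn2a is counted as 1 gene although it has a pair of separate starts, the upstream one for ARF, which blocks MDM2, and the downstream one for p16, so that its value sums both. The sequences are RefSeq's, on build GRCm38.p6, with the 250 bases before each start, read 5′ to 3′ on the gene's strand. They lie at chr17:29090729-29090978 on the plus strand for the first Cdkn1a start, and on the minus strand at chr4:89294620-89294869 for the upstream and chr4:89282193-89282442 for the downstream Cdkn2a start. Capitals mark matches, on either strand, to CATGNNNNNNCATG (a pair of p53 core letters) or to the GC box GGGCGG.
Cdkn1a first start: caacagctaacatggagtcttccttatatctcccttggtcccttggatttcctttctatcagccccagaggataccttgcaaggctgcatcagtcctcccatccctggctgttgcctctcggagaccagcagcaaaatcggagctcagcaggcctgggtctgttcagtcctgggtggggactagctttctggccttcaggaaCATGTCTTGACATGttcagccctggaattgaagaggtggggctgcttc
Cdkn2a upstream start: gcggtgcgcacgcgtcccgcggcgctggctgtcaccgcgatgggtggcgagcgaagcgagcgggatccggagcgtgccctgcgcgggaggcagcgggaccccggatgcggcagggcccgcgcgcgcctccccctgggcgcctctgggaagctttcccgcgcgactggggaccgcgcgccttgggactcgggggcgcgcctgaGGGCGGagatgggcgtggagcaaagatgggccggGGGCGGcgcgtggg
Cdkn2a downstream start: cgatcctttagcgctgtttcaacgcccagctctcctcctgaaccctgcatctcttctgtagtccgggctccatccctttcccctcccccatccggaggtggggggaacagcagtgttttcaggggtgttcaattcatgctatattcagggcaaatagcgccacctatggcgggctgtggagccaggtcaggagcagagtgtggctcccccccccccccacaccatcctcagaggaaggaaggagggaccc
Also searched were the E2F letters TTTGGCGC and TTTCGCGC, CCAAT and TATAAA, which 0.417%, 0.256%, 33.8% and 12.4% of promoters hold and none of these 3 sequences does. The pair of p53 core letters was found once, beginning 48 bases before the first Cdkn1a start, and 0.490% of 32851 mouse promoters of the same length hold it. The Cdkn1a start farther downstream, not printed here, had 2 GC boxes, 19 CpG dinucleotides and no such pair. The upstream Cdkn2a start had 2 GC boxes, which 32.7% of promoters hold at least once, and 40 CpG dinucleotides against a median of 6. The downstream Cdkn2a start had no GC box and 7 CpG. Sequences for 13 starts of 9 of the 10 genes were matched. The letters searched share no match. A match describes the letters only.

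Values are size-factor-normalised reads as the authors deposited them, and are given as mean ± SD (n = 5). A library held between 8.47 and 13.6 M recovered reads, where M stands for 1000000. The labels name a much smaller depth, and which of them is right could not be settled from the files. The share of reads on mitochondrial genes was 2.72 to 3.19% in the 6-month controls, 3.70 to 4.46% in the 12-month controls and 4.84 to 9.37% in the canagliflozin group, so it moved with every comparison below and its part in the results was not tested. Of the 12 granulosa and 11 luteal markers, none was at 0 in all 5 libraries of any group. Changes were tested with limma on log2(value + 1) over all 17569 genes, and "adjusted" means Benjamini-Hochberg over them. Both comparisons with the 12-month controls share those libraries, and both comparisons with the 6-month controls share those.

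**Figure D1:**
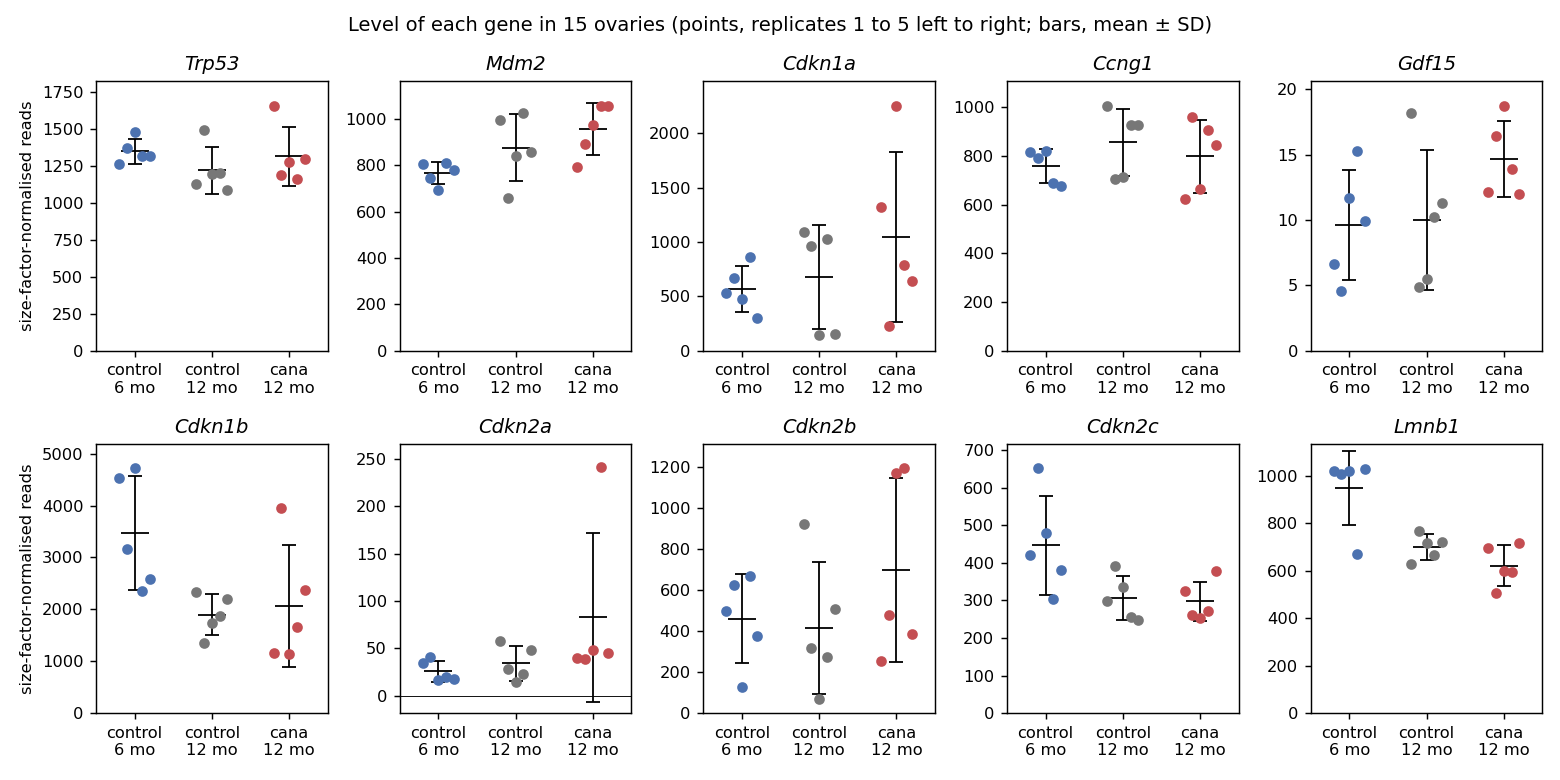
Level of each of the 10 genes in size-factor-normalised reads (y axis, linear, from 0 or below) in the 6-month controls, 12-month controls and canagliflozin group (x axis). Points are single ovaries and bars are mean ± SD (n = 5). The Lmnb1 points at 6 months lie near 1020 except for 1 at 672, and the Cdkn1a points at 12 months spread from 149 to 2255.

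Per kilobase of merged exon, the 10 genes spanned a wide range of levels. In the 12-month controls Cdkn1b was highest at 418 ± 84.8 and Trp53 followed at 302 ± 39.4, with Cdkn2b at 301 ± 231. Cdkn2a stood at 29.4 ± 15.6 and Gdf15 was lowest at 5.40 ± 2.89. Ccng1 (243 ± 39.2), Lmnb1 (236 ± 17.9), Cdkn1a (191 ± 136), Mdm2 (172 ± 28.7) and Cdkn2c (114 ± 22.1) came between. The ranges of Trp53 (269 to 369), Lmnb1 (213 to 259) and Mdm2 (130 to 202) did not overlap each other, while those of Cdkn2b (50.2 to 663) and Cdkn1a (41.9 to 308) overlapped all 3. Every pair of neighbours in this order overlapped except Cdkn2c (92.1 to 146), Cdkn2a (12.5 to 49.7) and Gdf15 (2.62 to 9.79), whose ranges were apart. All 10 genes passed the filter on low values, but Gdf15 rests on 5 to 19 recovered reads per library and Cdkn2a on 16 to 244.

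The spread between animals separated the genes. Cdkn1a and Cdkn2b varied most, with residual SDs of 1.18 and 1.12 on the log2 scale, the 97.8th and 97.6th percentiles of all genes tested. Cdkn2a had 0.85, the 95.1st percentile, while Trp53 (0.16) and Mdm2 (0.19) lay under the median gene at 0.27. Among genes within 0.5 of their own mean log2 level, Trp53 and Mdm2 were ordinary, at percentiles 44.2 and 53.6. There Cdkn1a, Cdkn2b and Cdkn2a stood at percentiles 99.6, 99.5 and 92.5.

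Between 6 and 12 months of age, the lamin B1 transcript fell and no other of the 10 genes passed the test. Lmnb1 fell to 0.745-fold, while the cell cycle inhibitors Cdkn1b and Cdkn2c, at 0.561-fold and 0.700-fold, did not pass. Trp53, Mdm2 and the p53 targets Cdkn1a, Ccng1 and Gdf15 did not pass. The call of 1 of 10 genes stands beside 12.4% of all genes tested called in either direction, and 7.01% called lower. edgeR on recovered reads also called Lmnb1 alone of the 10, beside 12.7% of all genes, and DESeq2 called Lmnb1, Cdkn1b and Cdkn2c, 3 of 10, beside 16.8%.

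Lmnb1 encodes lamin B1, a filament protein of the inner nuclear membrane. In the 6-month controls its values were 1019, 1009, 1020, 672 and 1030 in replicates 1 to 5. In the 12-month controls they were 630, 768, 716, 668 and 720. All 12-month values were below the 4 high 6-month ones, and 6-month replicate 4 lay among the 12-month ovaries, so the groups overlapped. On the log2 scale the difference was -0.42 with SE 0.12 and 95% interval -0.69 to -0.16 (limma adjusted p = 0.0347). On recovered reads edgeR gave an adjusted p of 0.0269 and DESeq2 0.00932. Without 6-month replicate 4 the difference was -0.54 (limma adjusted p = 0.00404). The call was lost in 8 of 15 fits that each left out 1 library, those without 12-month control replicates 1, 3, 4 or 5 or 6-month control replicates 1, 2, 3 or 5, with limma adjusted p between 0.0525 and 0.0840, and in edgeR on the 12 libraries whose reads were recovered most surely (adjusted p = 0.0741).

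Markers of several cell types moved with age beside Lmnb1, and the counts below stand beside 12.4% of all genes called. Of 7 tested B and plasma cell markers, 4 rose (Igkc, Jchain, Igha and Blk), and the summed level of the 10 listed was 141 to 189 at 6 months and 392 to 1237 at 12 months. Of 8 tested fat cell markers, 5 rose (Fabp4, Adipoq, Retn, Cidec and Cfd), with sums of 1321 to 1756 and 1487 to 2375. Of 7 tested T and NK cell markers, Cd3g and Txk rose, with sums of 137 to 180 and 200 to 426. Of 10 smooth muscle and pericyte markers, 4 fell (Cspg4, Mcam, Myh11 and Pdgfrb), with sums of 17975 to 23803 and 11256 to 17966, and Inhba, Nr5a2 and Gja1 of 12 granulosa markers rose. Smaller numbers moved among luteal (Prlr rose), surface epithelium (Muc16 rose), stroma (Nr2f2 fell), macrophage (Adgre1 and Csf1r fell) and endothelial markers (Vwf and Cdh5 fell), and none of 12 tested oocyte markers passed. No listed marker was at 0 in all libraries of a group. In whole-ovary RNA, fewer cells of a type and less RNA per cell cannot be told apart. With a corpus luteum score as covariate the Lmnb1 difference was -0.40 (limma adjusted p = 0.0299) and with a macrophage score -0.48 (0.0348), and the part of the other cell types was not tested.

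Cdkn1b, the p27 gene, was the only one of the 10 whose control groups did not overlap. Its values were 4533, 3161, 4717, 2358 and 2580 at 6 months. At 12 months they were 2327, 1353, 1748, 1880 and 2204, all below the lowest 6-month ovary. Groups that do not overlap with the 12-month controls lower were found for 8.07% of all genes tested. The mean was 3470 ± 1097 at 6 months and 1902 ± 386 at 12 months, a log2 difference of -0.83 with SE 0.31 that did not pass (limma adjusted p = 0.0940). DESeq2 gave an adjusted p of 0.0332, and edgeR 0.0889.

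Cdkn2c, which encodes the CDK4 and CDK6 inhibitor p18, was 420, 651, 479, 303 and 380 at 6 months. At 12 months it was 300, 392, 336, 257 and 247. The ranges overlapped between 303 and 392, with 6-month replicate 2 far above the rest. Its log2 difference was -0.52 with SE 0.18 (limma adjusted p = 0.0806; DESeq2 adjusted p = 0.0427), and without 6-month control replicate 4 it passed at -0.64 (limma adjusted p = 0.0300).

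Trp53 itself did not pass with age. It was 1261, 1370, 1482, 1320 and 1317 at 6 months. At 12 months it was 1127, 1493, 1197, 1200 and 1088. Replicate 2 of the 12-month controls stood above every 6-month ovary and the other 4 stood below all 5. The log2 difference was -0.15 with 95% interval -0.37 to 0.07 (limma adjusted p = 0.377). Wrap53, which overlaps Trp53 on the opposite strand, was between 89.9 and 194 in the 15 libraries, and the pseudogene Trp53-ps between 30.7 and 71.8. Whether the counting used strand was not given in the sources used here, so a small share of Trp53 reads is uncertain.

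Mdm2, whose product degrades p53, was 693 to 807 at 6 months and 660 to 1024 at 12 months, and the log2 difference of 0.18 did not pass (limma adjusted p = 0.336). Ccng1, a p53 target that encodes cyclin G1, was 676 to 819 and 704 to 1006, with a difference of 0.16 (limma adjusted p = 0.469). Gdf15, a secreted stress cytokine, was 4.54 to 15.3 and 4.85 to 18.1, and its difference of 0.02 had a 95% interval of -0.75 to 0.78 (limma adjusted p = 0.985). For these 3 genes the age groups overlapped.

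Cdkn1a, the p21 gene, was 533, 669, 475, 860 and 297 at 6 months. At 12 months its controls fell into 3 high values, 1096, 963 and 1026 in replicates 1, 2 and 4, and 2 low ones, 149 and 156 in replicates 3 and 5. The 6-month values lay between the high and the low ovaries. The log2 difference was -0.15 with a 95% interval of -1.65 to 1.34 (limma adjusted p = 0.916), while edgeR and DESeq2 on recovered reads put the sign the other way, at 0.25 and 0.26 (adjusted p = 0.831 and 0.833).

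The neighbours Cdkn2a and Cdkn2b did not pass with age either. Cdkn2a was 34.1, 40.9, 16.6, 19.5 and 17.8 at 6 months. At 12 months it was 58.2, 28.1, 14.7, 22.6 and 48.6, so replicates 1 and 5 exceeded every 6-month ovary while replicate 3 was below all of them. The log2 difference was 0.33 with a 95% interval of -0.70 to 1.37 (limma adjusted p = 0.704). Cdkn2b, which encodes p15, was 130 to 671 at 6 months and 69.8 to 921 at 12 months, and its difference of -0.37 had an interval of -1.80 to 1.06 (limma adjusted p = 0.762).

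**Figure D2:**
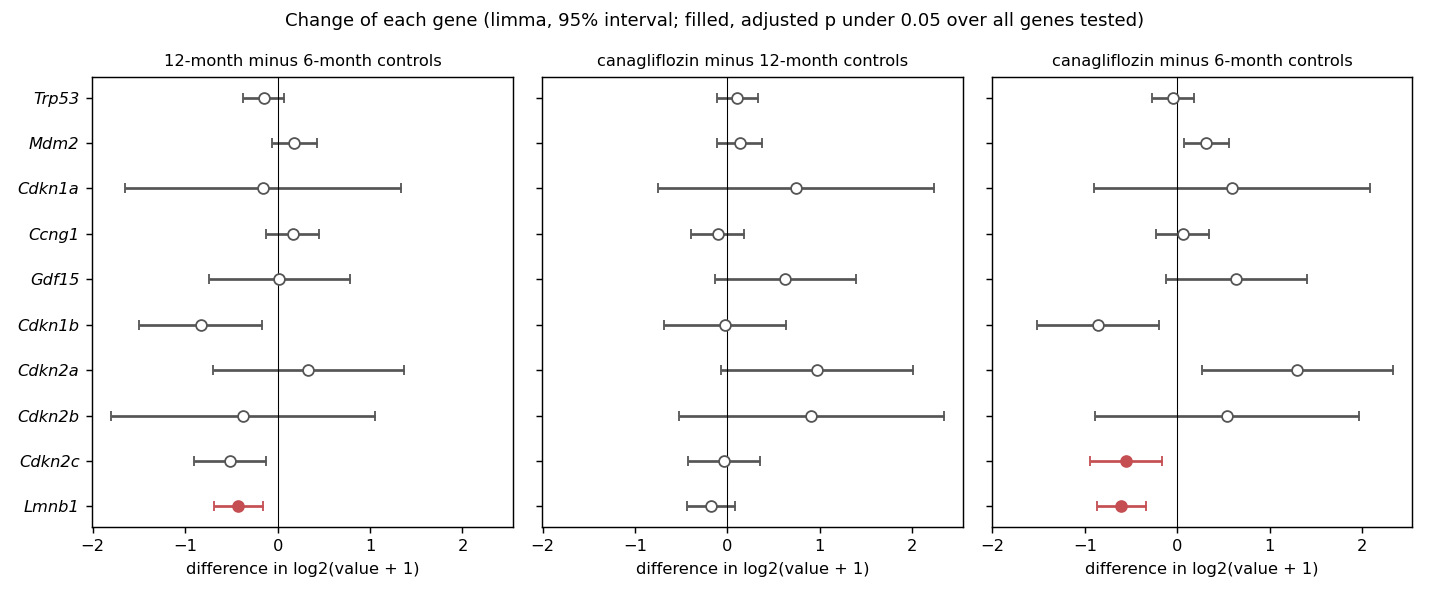
Difference in log2(value + 1) of each of the 10 genes (x axis) in the age comparison, the drug comparison and the comparison of canagliflozin with 6-month controls. Points are limma estimates with 95% intervals (5 libraries a group), and filled points passed at adjusted p under 0.05. Lmnb1 passed in both comparisons with the 6-month controls, Cdkn2c in 1, and no gene passed between canagliflozin and the 12-month controls.

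Between canagliflozin-treated mice and controls of the same age, none of the 10 genes passed. The largest positive differences were those of Cdkn2a, Cdkn2b, Cdkn1a and Gdf15, which also had wide intervals, and Trp53, Mdm2, Ccng1, Cdkn1b, Cdkn2c and Lmnb1 lay within 0.18 of 0 on the log2 scale. The count of 0 of 10 stands beside 0.00569% of all genes, 1 of 17569 called by limma, with 1616 at an unadjusted p under 0.05. edgeR called 9 genes (0.0512%) and DESeq2 63 (0.359%), in both cases with 0 of the 10. None of the 10 had an unadjusted p under 0.05, and the lowest was 0.0654 for Cdkn2a.

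Cdkn2a was 40.2, 38.7, 48.3, 242 and 45.0 in canagliflozin replicates 1 to 5. Replicate 4 stood far above every other ovary, and the other 4 lay within the range of the 12-month controls. The mean was 82.8 ± 89.0 against 34.4 ± 18.3, a log2 difference of 0.97 with a 95% interval of -0.07 to 2.00 (limma adjusted p = 0.559). Without replicate 4 the difference was 0.47. By likeness over the 15 libraries, the genes whose levels followed Cdkn2a most closely were Acot4 (Pearson r = 0.90, rho = 0.84), Itga1 (0.90 and 0.75) and Phldb3 (0.89 and 0.72), each of which was also highest in that ovary.

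Cdkn1a was 1318, 223, 2255, 792 and 640 in the canagliflozin group. Replicate 3 had the highest level of all 15 libraries and replicate 2 lay near the low 12-month controls. The mean was 1046 ± 781 against 678 ± 482, a log2 difference of 0.75 with a 95% interval of -0.75 to 2.24 (limma adjusted p = 0.740). Single ovaries moved the Cdkn1a difference, to 0.33 without 12-month control replicate 3 and to 1.21 without canagliflozin replicate 2. The genes most alike in level over the 15 libraries were Sdc4, a cell surface proteoglycan (r = 0.91, rho = 0.94), Tnfaip6, a matrix protein of the expanding cumulus (0.90 and 0.91), and Tnfrsf12a, the receptor for the cytokine TWEAK (0.87 and 0.91). Tnfaip6 ran from 0.868 in 12-month control replicate 5 to 202 in canagliflozin replicate 1.

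Cdkn2b was 258, 481, 1171, 1195 and 386 with canagliflozin, where replicates 3 and 4 exceeded every 12-month control. The log2 difference was 0.91 with a 95% interval of -0.52 to 2.34 (limma adjusted p = 0.680), and without 12-month control replicate 3, the lowest at 69.8, it was 0.38. Gdf15 was 12.2, 16.4, 18.7, 13.9 and 12.0, and only control replicate 1, at 18.1, fell inside that range. The difference was 0.62 with a 95% interval of -0.14 to 1.39 (limma adjusted p = 0.606), on 10 to 19 reads per treated library. Over the 15 libraries Gdf15 was most like Ly6a (r = 0.80, rho = 0.73), Havcr2 (0.80 and 0.82) and Ubr4 (0.79 and 0.69).

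Trp53 was 1659, 1187, 1278, 1165 and 1294 with canagliflozin, and replicate 1 was the highest of all 15 ovaries. The log2 difference of 0.11 had a 95% interval of -0.12 to 0.33 (limma adjusted p = 0.754). Mdm2 was 793 to 1057 against 660 to 1024 (difference 0.13, limma adjusted p = 0.715), and Ccng1 622 to 961 against 704 to 1006 (difference -0.10, limma adjusted p = 0.814). These intervals, of which the Mdm2 one reached from -0.11 to 0.38, do not reach a difference of 1 on the log2 scale in either direction.

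Lmnb1 was 695, 505, 599, 594 and 718 with canagliflozin, and 3 of the 5 values were below every 12-month control. The treated group differed by -0.18 on the log2 scale, with a 95% interval of -0.44 to 0.09 (limma adjusted p = 0.662). Cdkn1b was 1167, 3957, 1142, 1661 and 2383, where only replicate 4 fell inside the control range, and its difference was -0.03 (95% interval -0.69 to 0.64; limma adjusted p = 0.985). Without replicate 2, the high one, it was -0.30. Cdkn2c was 325, 261, 253, 273 and 377, within 247 to 392 in the controls, with a difference of -0.04 (limma adjusted p = 0.959).

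Set against the 6-month controls, the canagliflozin group had lower Lmnb1 and Cdkn2c, and these 2 of 10 genes passed. They stand beside 28.4% of all genes called in either direction and 14.9% called lower, and this contrast joins 6 months of age with the drug. Lmnb1 fell to 0.658-fold (log2 difference -0.60, SE 0.12, limma adjusted p = 0.00228), and it was called in each of the 15 fits that left out 1 library. The 6-month replicate 4, at 672, was again the only young ovary inside the treated range. Cdkn2c fell to 0.681-fold (log2 difference -0.55, SE 0.18, limma adjusted p = 0.0344). The Cdkn2c call was lost without canagliflozin replicates 2, 3 or 4 or 6-month control replicates 1, 2 or 3 (limma adjusted p between 0.0551 and 0.0930), and with a luteal (0.0839) or macrophage score (0.0798) as covariate.

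Cell type markers moved with this comparison too, beside 28.4% of all genes. Of 10 smooth muscle and pericyte markers 6 were lower, with sums of 17975 to 23803 at 6 months and 11018 to 20175 with canagliflozin. Of 10 stroma markers 3 were lower (15843 to 19845 and 10676 to 14672), and of 14 macrophage markers 3 were lower (4526 to 8108 and 2831 to 5615). Of 7 tested B and plasma cell markers 4 were higher (141 to 189 and 656 to 1073), and of 7 tested T and NK cell markers 3 were higher (137 to 180 and 160 to 366). Of 8 tested fat cell markers 5 were higher and Plin1 was lower (1321 to 1756 and 1344 to 2144), and of 12 granulosa markers 4 were higher and Amhr2 was lower. Of 12 tested oocyte markers 2 were lower (Nobox and Kit), and of 11 luteal markers Prlr was higher and Parm1 lower. Of 10 endothelial markers Emcn and Esam were higher and Vwf and Cdh5 lower, and of 10 surface epithelium markers Muc16 was higher. No listed marker was at 0 in all 5 libraries of either group. The Lmnb1 difference was -0.53 with the luteal score as covariate (limma adjusted p = 0.00496) and -0.70 with the macrophage score (0.00829), and the part of the other cell types in the Lmnb1 and Cdkn2c results was not tested.

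The genes Cdkn1b, Mdm2 and Cdkn2a lay just outside the threshold here. Cdkn1b was 0.551-fold (limma adjusted p = 0.0501), Mdm2 1.24-fold (limma adjusted p = 0.0528) and Cdkn2a 2.46-fold (limma adjusted p = 0.0574). Each passed in some alternatives and moved away from the threshold in others. In edgeR on 12 libraries the adjusted p values were 0.183, 0.235 and 0.324 for Cdkn1b, Mdm2 and Cdkn2a. With the luteal covariate the limma adjusted p values were 0.0104, 0.131 and 0.145, and with the macrophage covariate 0.304, 0.118 and 0.0171. edgeR called 4 of the 10 (Mdm2, Cdkn2a, Cdkn2c and Lmnb1) beside 29.4% of all genes, and DESeq2 called 5, adding Cdkn1b, beside 32.8%. Without canagliflozin replicate 4, the Cdkn2a log2 difference was 0.81 in place of 1.30. Whether the change from 6 months differed between treated and untreated mice is the drug comparison, in which none of the 10 passed.

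Other genes of the pathway were described in lists. With age, 4 of 18 tested regulators of p53 rose and none fell, with a median log2 difference of 0.18 against 0.00 for all genes. The counts in these lists stand beside 12.4% of all genes called with age, and those of the 6 other lists lay near or below that share. The largest difference of the regulators was that of Mdm4, the MDM2 partner that masks the p53 activation domain. It was 1659, 1602, 1515, 1847 and 1872 at 6 months. At 12 months it was 3502, 2758, 3897, 4134 and 3506 in controls, and 4277, 3903, 3576, 3850 and 3973 with canagliflozin. All 5 young ovaries were below all 10 ovaries of 12 months. Mdm4 rose 2.08-fold with age (SE 0.10 on the log2 scale, limma adjusted p = 5.15e-05), and all 29 alternatives called it. The pseudogene Mdm4-ps, at 22.8 to 36.0 and 56.3 to 76.9 in the control groups, showed the same order at far lower levels, and reads shared between the pair cannot be told apart. Between canagliflozin and 12-month controls the Mdm4 difference was 0.15 (limma adjusted p = 0.666).

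The other regulators that rose with age were Usp7, a deubiquitinase of MDM2 and p53 (1379 ± 92.0 to 1787 ± 129), the damage kinase Atr (237 ± 43.3 to 382 ± 33.3), and the damage-response protein gene Trp53bp1 (885 ± 94.8 to 1195 ± 122). Their limma adjusted p values were 0.00470, 0.00676 and 0.00903. All 3 held in every alternative.

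Among 29 p53 targets, 1 rose and 1 fell with age, with a median of 0.08. Eda2r, a death-domain receptor, was 37.3 to 55.0 at 6 months and 57.8 to 87.2 at 12 months and rose 1.48-fold (limma adjusted p = 0.0327), and that call was lost in 7 of 15 fits leaving out 1 library, at limma adjusted p between 0.0509 and 0.0852. These were the fits without 12-month control replicates 1, 2, 4 or 5 or 6-month control replicates 3, 4 or 5. The Eda2r call was also lost with no filter (limma adjusted p = 0.0518), the replicate block (0.0562), the macrophage covariate (0.0544) and edgeR on 12 libraries (0.0796). Sesn2, a stress-induced inhibitor of mTORC1, fell from 375 ± 45.9 to 263 ± 52.6 (limma adjusted p = 0.0203), and was lost without 12-month control replicate 3 or 6-month control replicate 3 (0.0504 and 0.0568), without the pair of 12-month control replicate 3 and canagliflozin replicate 2 (0.0549), and with the macrophage covariate (0.0565). The third target by p was Polk, a translesion polymerase, at 161 ± 18.5 and 212 ± 38.9 (limma adjusted p = 0.105).

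In the cell cycle lists, Rb1, the retinoblastoma gene, rose from 265 ± 15.1 to 350 ± 39.5 (limma adjusted p = 0.00959), 1 of 23 CDK, cyclin and RB genes. Cyclin E2 (Ccne2) and Cdk2 came next, at 0.719-fold and 0.875-fold (limma adjusted p = 0.0910 and 0.107). Of 22 proliferation genes 1 passed, and Mcm2, of the replicative helicase, was 465 to 703 at 6 months and 335 to 575 at 12 months and fell to 0.714-fold (limma adjusted p = 0.0472), and the call was lost in 11 of 15 fits leaving out 1 library, with 0.116 without 12-month control replicate 1 as the highest. Only the fits without canagliflozin replicate 2, 12-month control replicates 3 or 5, or 6-month control replicate 4 kept it. The Mcm2 call was also lost with no filter (limma adjusted p = 0.0553), with only the compared groups (0.0672), and in edgeR with TMM (0.0579) or RLE scaling (0.0546) or on 12 libraries (0.121). Mcm5 was 0.714-fold (limma adjusted p = 0.0785) and Mki67, the proliferation antigen Ki-67, 1.49-fold (0.113).

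Of 18 tested secreted senescence factors, the metalloelastase Mmp12 rose from 63.0 ± 41.3 to 216 ± 136 (limma adjusted p = 0.0439), and lost its call in 9 of 15 fits leaving out 1 library, with 0.111 without 6-month control replicate 2 as the highest. The others were the fits without canagliflozin replicates 4 or 5, 12-month control replicates 1, 2 or 4, or 6-month control replicates 1, 3 or 4. It was also lost with no filter (limma adjusted p = 0.0644), only the compared groups (0.0676), the replicate block (0.0599) and the macrophage covariate (0.0760). Glb1, which encodes the lysosomal galactosidase stained as a senescence sign, was 784 ± 211 and 528 ± 112 (limma adjusted p = 0.0674), and the growth factor binding protein gene Igfbp3 was 1.64-fold (0.169). Of 13 nuclear envelope genes, the nesprins Syne2 (4572 ± 1176 to 7248 ± 727) and Syne1 (373 ± 46.3 to 681 ± 231) rose (limma adjusted p = 0.0155 and 0.0233). Syne1 lost its call without 12-month control replicates 1, 4 or 5 or 6-month control replicates 1, 3 or 5 (0.0508 to 0.0622). Sun2 was 0.808-fold (limma adjusted p = 0.0520). None of 15 integrated stress genes passed with age, and Phgdh, of serine synthesis, came nearest at 0.617-fold (limma adjusted p = 0.0871), before Mthfd2 at 1.39-fold (0.124) and Ddit4 at 0.819-fold (0.190). The medians of the CDK, proliferation, secreted, envelope and stress lists were -0.10, -0.16, 0.17, -0.06 and 0.12.

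**Figure D3:**
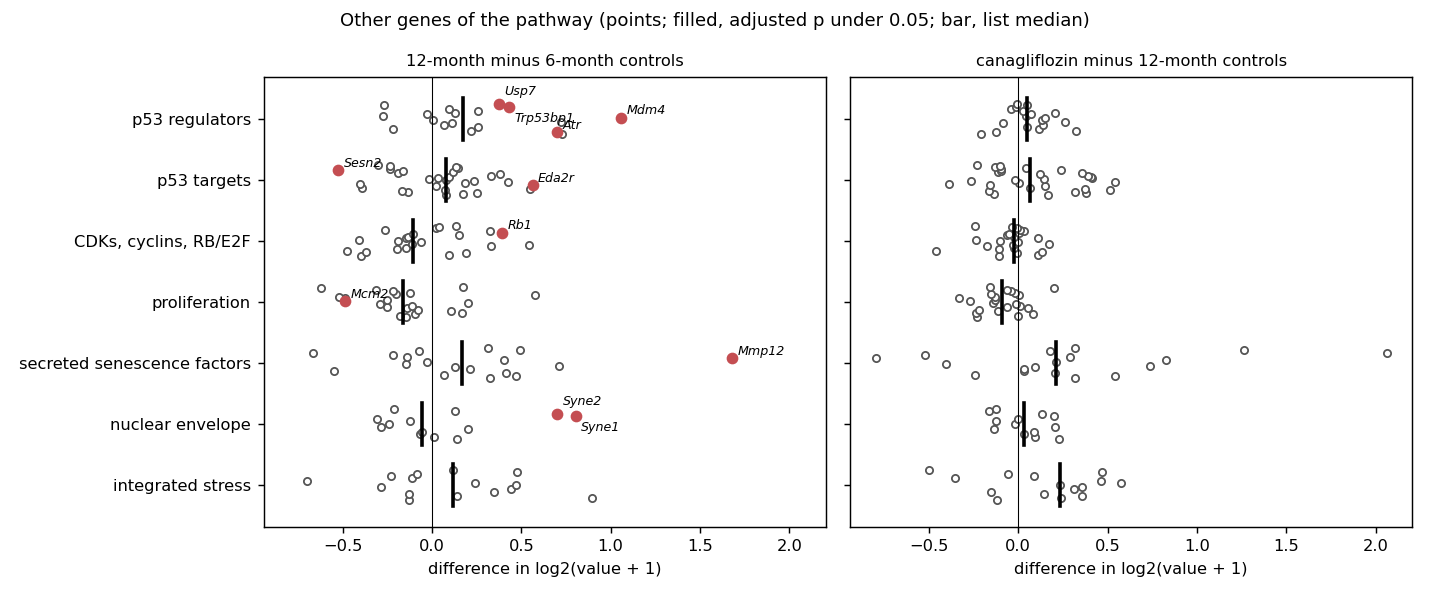
Difference in log2(value + 1) (x axis) of each tested gene of the 7 lists (y axis) with age, left, and between canagliflozin and 12-month controls, right. Points are genes, filled where the adjusted p was under 0.05, and bars are list medians. Mdm4, at 2.08-fold, lies farthest right of the p53 regulators on the left, and no point is filled on the right.

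Between canagliflozin and the 12-month controls, no gene of the 7 lists passed. The p53 targets with the smallest p were Bax, which promotes apoptosis (886 ± 138 and 1152 ± 205 in controls and treated, limma adjusted p = 0.462), Plk2, a polo-like kinase (405 ± 54.0 and 540 ± 61.8, 0.462), and Ephx1, an epoxide hydrolase (1599 ± 470 and 1210 ± 265, 0.542). Ccne2 had the smallest p of the CDK list (64.3 ± 14.0 and 46.2 ± 9.04, limma adjusted p = 0.482) and Il1b of the secreted factors (18.9 ± 7.02 and 35.1 ± 16.7, 0.514). The other genes of smallest p were Kat5 (1.10-fold), Mdm4 and Crebbp (1.10-fold) of the regulators, Tfdp2 (0.845-fold) and Cdk2 (0.929-fold) of the CDK list, and Mcm5 (0.794-fold), Mcm2 (0.830-fold) and Ccnb1 (0.858-fold) of the proliferation list, none of which passed. Those of the secreted factors were Igfbp3 (1.67-fold) and Spp1 (652 ± 433 and 5967 ± 9902), those of the nuclear envelope Tmpo (0.892-fold), Sun1 (0.918-fold) and Banf1 (1.17-fold), and those of the stress list Vldlr (0.706-fold), Ddit4 (1.28-fold) and Atf4 (1.28-fold), with limma adjusted p between 0.468 and 0.711 over these 16. Medians of the lists lay between -0.09 and 0.23 against 0.00 for all genes.

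Against the 6-month controls, 6 of 18 regulators were higher with canagliflozin, Hipk2 and Cop1 beside the 4 named with age, and 5 p53 targets were higher and 5 lower of 29. These shares stand near the 28.4% of all genes called in this comparison, and those of the CDK, proliferation, secreted and stress lists lay below it. The share of the nuclear envelope list, with 3 higher and 2 lower of 13 tested, lay above it. The higher p53 targets were Bax (1.54-fold), Gadd45a (1.96-fold), Polk, Plk2 and Cd80, and the lower ones Ephx1 (0.579-fold), Zmat3 (0.689-fold), Xpc, Tigar and Bcl2l1. Limma adjusted p values of the 10 ran from 0.00178 for Bax to 0.0428 for Cd80. Leaving out 1 library ended the calls of Cd80 (9 of 15 fits), Plk2 (7), Tigar (6), Xpc (4), Bcl2l1 (4) and Polk (1). In the other lists, Rb1 was higher and Ccne2 and Cdk2 lower, Mcm2 and Mcm5 were lower, and Igfbp3 and Il1b were higher. Of the envelope genes Syne1, Syne2 and Banf1 were higher and Sun1 and Sun2 lower, and of the stress genes Mthfd2 and Atf4 were higher. Leaving out 1 library also ended the calls of Cop1 (6 fits, limma adjusted p up to 0.0942), Banf1 (6, up to 0.0980), Atf4 (6, up to 0.0893) and Sun2 (5, up to 0.0744). In edgeR on 12 libraries, Polk, Plk2, Xpc, Tigar, Bcl2l1, Cdk2, Il1b, Sun1, Sun2, Mthfd2 and Atf4 did not pass (adjusted p 0.0587 to 0.216). The luteal covariate ended the calls of Plk2, Tigar, Bcl2l1 and Cd80 (limma adjusted p 0.0588 to 0.0783). Having no filter ended those of Cop1, Tigar and Cd80 (0.0514 to 0.0538), and only the compared groups those of Cop1 and Cd80 (0.0589 and 0.0806). With a macrophage score as covariate the calls in the 7 lists went from 30 to 16, while those over all genes went from 4982 to 2601.

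Across animals, the 5 genes Trp53, Mdm2, Cdkn1a, Ccng1 and Gdf15 were compared pair by pair on log2 values with group means removed. None of the 10 pairs passed after adjustment. Trp53 and Mdm2 gave Pearson r = -0.76 and Spearman rho = -0.44 over 15 libraries (permutation within groups p = 0.0101 and 0.145, adjusted 0.101 and 0.320). Without canagliflozin replicate 1 and 12-month control replicate 2, the ovaries farthest from the median Trp53, r was -0.20 (permutation p = 0.523), so the pooled relation no longer held. Within groups of 5 ovaries r was -0.74 for canagliflozin, -0.78 for the 12-month controls and -0.95 for the 6-month controls, which hold neither of the 2. Trp53 and Ccng1 gave r = -0.65 and rho = -0.64 (permutation p = 0.0209 and 0.0365, adjusted 0.104 and 0.320), and r = -0.29 without the same 2. Trp53 and Cdkn1a gave r = 0.39 (permutation p = 0.245).

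Trp53 was lower in ovaries with a higher corpus luteum score, the mean log2 level of 11 luteal markers that include Star, Lhcgr and Cyp11a1. With group means removed, Pearson r was -0.89 and rho -0.86 over 15 libraries (permutation within groups p = 2e-05 and 0.00052). This was 1 of 120 relations of the 10 genes with 12 cell type scores, computed after the data were seen, and the adjusted values over the 120 were 0.0024 and 0.0624. Within groups r was -0.95 for canagliflozin, -0.80 for the 12-month controls and -0.99 for the 6-month controls, with 5 ovaries each. Without canagliflozin replicate 1 and 6-month control replicate 3, the ovaries farthest from the median score, r was -0.80 (permutation p = 0.00141, adjusted 0.0564). The next of the 120 was Ccng1 with the endothelial score (r = 0.80, permutation p adjusted 0.0888). Trp53 with the endothelial score gave r = -0.81 (permutation p adjusted 0.126). With the oocyte score, Ccng1 gave r = -0.78 and Cdkn1b r = -0.59 over 15 libraries (permutation p adjusted 0.159 and 0.392). Without canagliflozin replicates 4 and 5, the ovaries farthest from the median oocyte score, these were -0.93 and -0.92 (permutation p adjusted 0.0228 for both). Within groups r was -0.71 and -0.41 for canagliflozin, -0.96 and -0.87 for the 12-month controls, and -0.95 and -0.92 for the 6-month controls. Both relations passed only after 2 treated ovaries were left out, so neither is taken as a result. The summed level of the luteal markers overlapped between the groups, at 202564 to 286751, 184022 to 317313 and 150621 to 386847 in the 6-month, 12-month and canagliflozin ovaries.

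**Figure D4:**
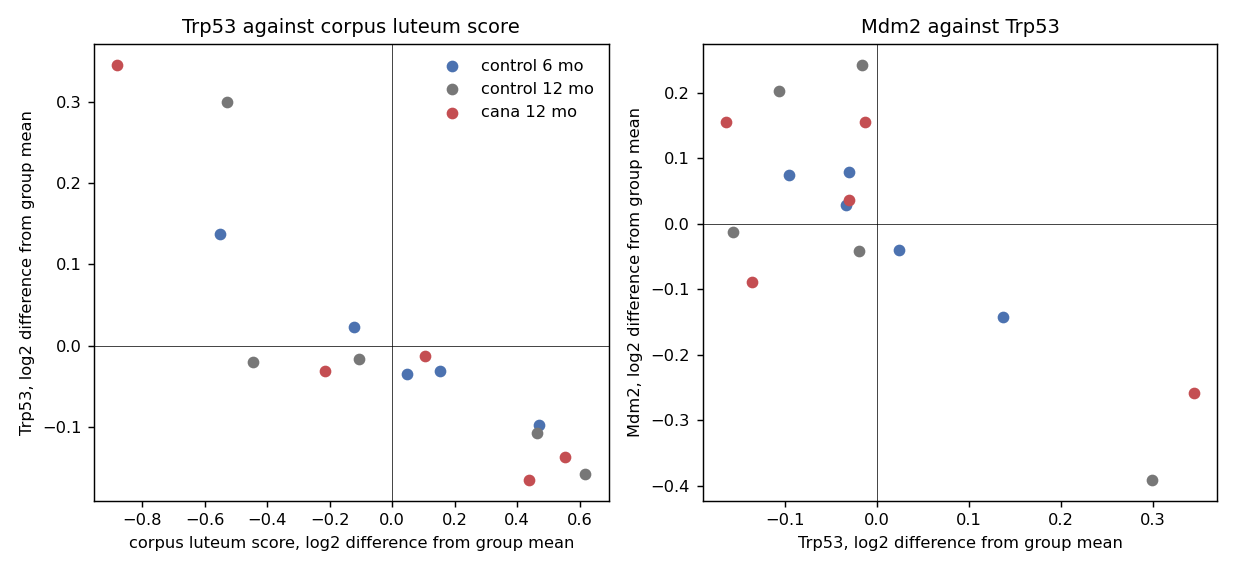
Left, Trp53 against the corpus luteum score, and right, Mdm2 against Trp53, each as log2 difference from its group mean (both axes) in 15 ovaries coloured by group. On the left the points fall from upper left to lower right (r = -0.89), and on the right 2 ovaries with high Trp53 lie far from the others.

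The genes most like Trp53 in level over the 15 libraries were Aprt, of adenine salvage (r = 0.87, rho = 0.85), Mfsd10 (0.83 and 0.76) and the glycine transporter Slc6a9 (0.82 and 0.82). For the genes called, likeness was added after their values were seen. Lmnb1 was most like Iqgap3 (r = 0.93, rho = 0.86), Gtse1 (0.93 and 0.92) and G3bp1 (0.91 and 0.88), of which Gtse1 is known as a cell cycle gene that restrains p53. Cdkn2c was most like Phf19 (0.89 and 0.82), Tmem220 (0.86 and 0.79) and Pdgfrl (0.86 and 0.87). These likenesses include the group differences and carry no test. With group means removed, Lmnb1 correlated positively with all 22 proliferation genes over 15 libraries (Pearson r 0.34 to 0.86, median 0.75, highest for Mki67). Cdkn2c did so with all 22 as well (r 0.067 to 0.73, median 0.56, highest for Plk1), and these values carry no test either. Between the age groups Mki67 went the other way from Lmnb1. It was 428 to 882 at 6 months and 816 to 1209 in the 12-month controls, and did not pass.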

How the data were processed

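RNA was measured in 15 ovaries, 5 per group, by directional sequencing of polyadenylated RNA, per the labels' protocols. The deposited values are a signal per gene and library: the authors' gene-level reads after division by a library's own size factor, as the values themselves show. Partek 11.0 and build mm39 are named per the submitters' processing notes, and the aligner, counter and annotation were not given in the sources used here. Whole reads were recovered from the smallest step of each library (over 99.99% of values whole within 0.1 read), with a step near 1 in 3 libraries (canagliflozin replicates 4 and 5, 6-month control replicate 5). Genes that reached 10 in 5 or more libraries were tested with limma 3.58.1 (R 4.3.3; trend, robust) on log2(value + 1), in 1 fit of 15 libraries, called at adjusted p under 0.05. The pseudocount of 1 understates changes of low genes. edgeR 4.0.16 and DESeq2 1.42.0 were run on recovered reads as alternatives, with other pseudocounts, filters, covariates and libraries left out. The script was tested on simulated data. No 2 libraries of the same group agreed within counting noise, and each is taken as 1 mouse. Pairs from different groups were not compared in this way.

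Named beside the 10 genes were, of each pathway list, all called genes and the 3 with the smallest p with age and with the drug, all called cell type markers, and the 3 genes most alike in Pearson r to Trp53, Cdkn1a, Cdkn2a and Gdf15. The members and the lists were chosen with earlier results of these data known. Lengths for levels per kilobase are merged exons of GENCODE M21, which is of another build than mm39. Lin54 and Fgf21 of the lists were not analysed here.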

Additional observations from a re-analysis of the deposited data

Results flagged for a closer look

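Each of the 10 genes was searched in each of the 3 groups for a single ovary whose gap to its nearest neighbour took more than 0.710 of the group's whole range (Dixon's critical value for 5). The search used the linear values, not the log2 values tested elsewhere, and the log2 scale was not searched. Of the 30 groups searched, 4 held one, and chance gives about 1 in 20 for normally distributed values. Gaps near the critical value can depend on the scale, so the count is no measure of an excess over chance. Trp53 was 1493.17 in 12-month control replicate 2, where the next highest was 1199.83, and 1658.65 in canagliflozin replicate 1, where the next was 1294.07. Cdkn2a was 241.873 in canagliflozin replicate 4, against 48.3 in the next. Lmnb1 was 672.333 in 6-month control replicate 4, the lowest, and the next lowest was 1009. What sets these ovaries apart was not tested.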

How the results depend on the processing

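All 10 genes passed the filter, so the test planned for genes under it was not run, and a filter of 50 dropped Cdkn2a and Gdf15. With canagliflozin against 12-month controls, 0 of the 10 and 0 pathway genes were called in each of the 29 alternatives. All genes called went from 1 to 2 (no filter), 9 (edgeR with either scaling), 63 (DESeq2), 0 (only the groups compared), 2 (corpus luteum covariate), 11 (adjusted p under 0.1), 23 (edgeR on 12 libraries, added after seeing the data) and 0 to 37 with 1 library left out, the 37 without canagliflozin replicate 5. Replicate numbers did not pair the libraries (correlations of deviations -0.30 to 0.25; in each comparison at most 1 of 5 matched its own number best), and the replicate block gave 3 calls. With age, the 10 genes had 1 call, and 3 with DESeq2 or adjusted p under 0.1. They had 2 with only the groups compared or the luteal covariate, and 0 with edgeR on 12 libraries. Leaving out 1 library gave 0 to 2. All genes called with age were 2179 (12.4%), 2960 (16.8%) with DESeq2, and 1537 to 2402 with 1 library left out. Pathway calls went from 11 to 18 (luteal covariate), 19 (adjusted p under 0.1) and 7 to 13 with 1 library left out. Canagliflozin against 6 months gave 2 of the 10, and 4 with a filter of 50 or edgeR, 5 with DESeq2 or adjusted p under 0.1, and 1 to 3 with 1 library left out. All genes called there were 4982 (28.4%), 5174 (29.4%) with edgeR, 5769 (32.8%) with DESeq2, and 3923 to 5318 with 1 library left out. For both comparisons the shares of all genes under the other settings are not given here, so those counts are no result about the 10. The macrophage covariate gave 2601 of all genes and 16 pathway genes there. No reversed sign belonged to a called gene. Against 12-month controls, Cdkn1b turned to 0.11 (edgeR TMM), 0.12 (RLE, DESeq2), 0.10 (macrophage covariate) and 0.14 (12 libraries), with -0.33 to 0.15 leaving out 1 library or the pair of canagliflozin replicate 2 and 12-month control replicate 3 (added after seeing the data). Cdkn2c turned to 0.048 (luteal), with -0.13 to 0.055 over those fits, and Ccnb1 ranged from -0.31 to 0.013, the latter without the pair. With age, Cdkn1a turned to 0.25 (TMM), 0.26 (RLE, DESeq2), and 0.097 (12 libraries), with -0.45 to 0.27 over those fits. Cdkn2b turned to 0.016 (macrophage), with -0.78 to 0.16, and Gdf15 to -0.042 (luteal), with -0.22 to 0.21. Against 6 months, Trp53 turned to 0.080 (luteal) and 0.036 (12 libraries), Cdkn2b to -0.076 (luteal), and Ccng1 to -0.085 (luteal) and -0.040 (12 libraries), with -0.014 to 0.14 over those fits. The causes were not tested. Gdf15, at 5 to 19 reads a library, is limited by depth.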
